A study of Mus musculus with 4 samples.

Results

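The 37 genes described here encode the machinery of autophagy, the route by which a cell wraps part of its own cytoplasm in a membrane and delivers it to the lysosome for breakdown. They were taken from a list of gene symbols. Each gene was represented by its brightest probe set among those annotated with exactly 1 symbol, and 36 of the 37 genes had one, out of 22180 genes on the array. Optn was not analysed here. RNA of bone marrow cells from 2-month-old mice was hybridised to 4 Affymetrix MoGene 2.0 ST arrays, and each genotype had 1 array: Fancd2 knockout (Fancd2KO), Foxo3a knockout (Foxo3aKO), the knockout of both genes (DKO) and wild type (WT). Cells were sorted as positive for Sca-1 and c-Kit and negative for lineage markers and CD34, which is a stem cell gate. Their label names the SLAM scheme, although its usual markers CD150 and CD48 are missing from the gate given. The sources used here do not state the strain, the sex, the knockout alleles or how many mice each array stands for.

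Autophagy starts when the Ulk1 kinase complex is released from inhibition by mTOR. A lipid kinase complex built around Becn1 then marks the membrane that will grow. The conjugation enzymes Atg7, Atg3, Atg10, Atg5, Atg12 and Atg16l1 attach small ubiquitin-like proteins of the Atg8 family to that membrane, where they hold cargo receptors such as Sqstm1. Haematopoietic stem cells use autophagy to survive starvation and to clear active mitochondria. Foxo3, the gene of Foxo3a, is known in mouse muscle and mouse stem cells as an activator of autophagy genes, and Fancd2 belongs to the Fanconi anaemia pathway of DNA crosslink repair. The layout allows the machinery genes to be compared with each loss alone and with both losses together.

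No genotype had a replicate, so a difference below is between 1 array and another, without a replicate check. Array medians over all 41345 probe sets lay between 5.27 and 5.34 on the log2 scale of the deposited values, and Pearson correlations between arrays lay between 0.965 and 0.969. For 477 genes with a pair of bright probe sets, both probe sets gave differences that disagreed with an SD of 0.44 to 0.48 log2 in the 5 comparisons. The size of the disagreement stayed within 0.85 to 0.94 in 95% of these genes. It is the gap between a pair of differences read from the same RNA, so it holds no variation between animals or sorts. Fancd2 stood at 6.08 log2 in Fancd2KO, 6.67 in Foxo3aKO and 5.84 in DKO, against 6.56 in WT. Foxo3 stood at 6.72, 6.64 and 6.51 on the same arrays, against 6.62 in WT. The Foxo3 signal thus does not separate the arrays labelled as Foxo3a knockouts from the others, and the exons under its probe set were not known. Background probe sets with 18 or more G and C bases had medians of 6.32 in Fancd2KO, 5.88 in Foxo3aKO and 6.49 in DKO, against 6.41 in WT, above the Fancd2 values in Fancd2KO and DKO. Over all 23 background probe sets the medians were 3.13 in Fancd2KO, 2.95 in Foxo3aKO and 3.17 in DKO, against 3.01 in WT. The base content of the genes' own probes was not examined, so which background applies to a gene was not known. Of the 12 stem cell markers listed, 10 were measured, and all of these lay above the signal floor of 5.51 log2 on every array. Cd34, whose protein the gate selects against, stood at 10.28 log2 in Fancd2KO, 9.67 in Foxo3aKO and 10.36 in DKO, against 10.79 in WT. Neutrophil genes, which the lineage gate is meant to remove, also gave signal, with list medians of 11.13 in Fancd2KO, 11.85 in Foxo3aKO and 11.07 in DKO, against 11.39 in WT.

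The autophagy machinery was measurable on all 4 arrays and differed little between them. A gene was counted as measured above the floor when its mean over the 4 arrays reached the median of all gene values, 5.51 log2. This held for 35 of the 36 genes and for 11068 genes in all. Tfeb, the transcription factor of lysosomal genes, was the exception. No autophagy gene was 2-fold apart in any of the 5 comparisons, and 7 of 175 differences reached 1.5-fold (0.58 log2), spread over 6 genes. Between its lowest and highest array, the median autophagy gene spanned 0.40 log2, beside 0.44 for the median of all genes above the floor. Of these 35 genes, 7 spanned at least 1.5-fold, or 20.0%, beside 31.3% of all genes.

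**Figure D1:**
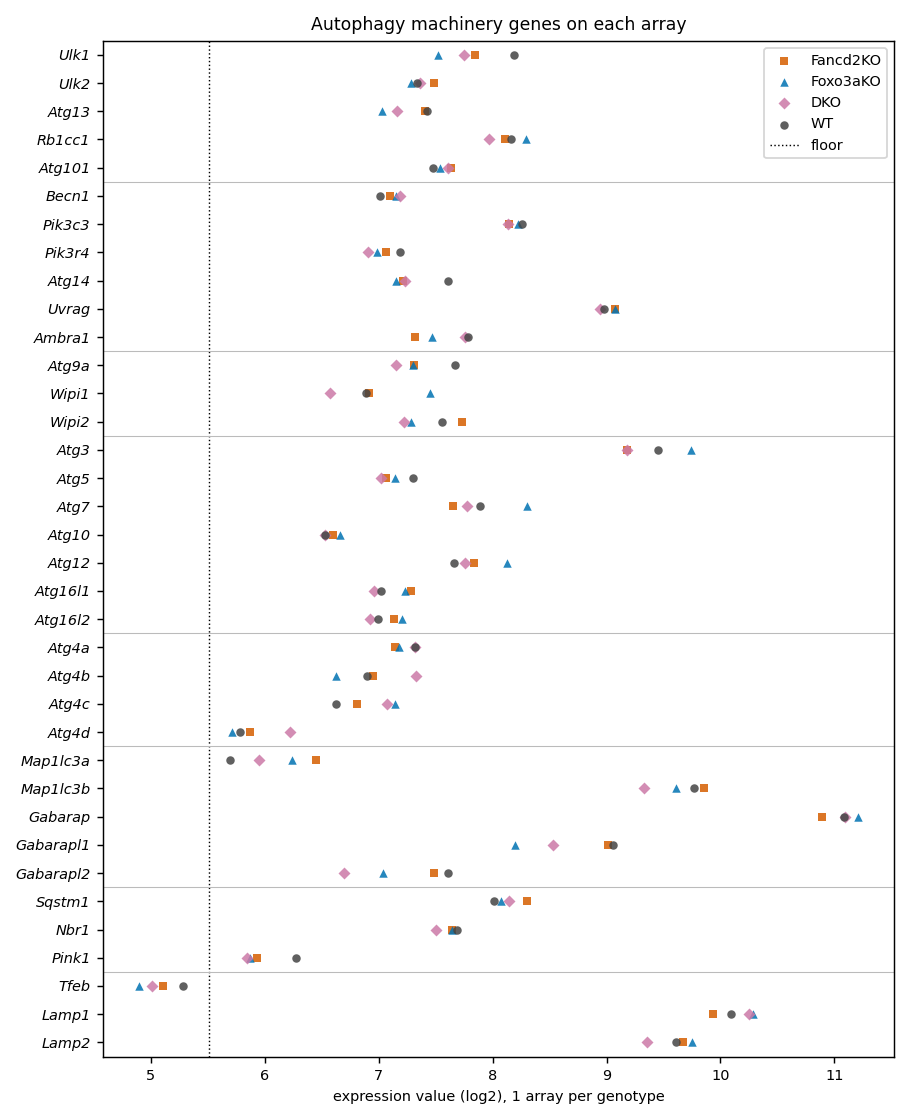
Expression value in log2 (horizontal axis) of the 36 measured autophagy genes (rows, grouped by role), with 1 point per array: squares Fancd2KO, triangles Foxo3aKO, diamonds DKO, circles WT. The dotted line is the floor of 5.51 log2, and only Tfeb lies below it on all 4 arrays.

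Against WT, the Fancd2KO array showed 1 autophagy gene at least 1.5-fold higher (Map1lc3a) and 0 lower. Of all genes above the floor, 4.75% were that far higher and 5.85% that far lower, and 1.31% and 1.13% were at least 2-fold higher and lower. The median difference of the autophagy genes was -0.02 log2, as for all genes (-0.02), with 17 higher and 18 lower. That is 48.6% higher, beside 47.75% of all genes. The Foxo3aKO array had 0 of them 1.5-fold higher and 2 lower (Gabarapl1 and Ulk1), where 5.29% and 7.45% of all genes were called. Over all genes 1.56% were 2-fold higher and 1.17% were 2-fold lower there. The median of the list was -0.03, beside -0.05 for all genes, again with 17 higher and 18 lower, where 43.6% of all genes were higher.

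In the DKO array, 0 autophagy genes were 1.5-fold higher than in WT and 1 was lower (Gabarapl2), where 4.26% and 5.93% of all genes were called, and 1.08% and 1.47% at 2-fold. With each array centred on its median, the share of higher genes among all 1.5-fold calls was 30.2%, beside 41.8% as deposited. The list median was -0.11, beside -0.03 for all genes, with 13 genes higher and 22 lower. That is 37.1% higher, beside 45.3% of all genes. DKO minus Fancd2KO gave a list median of -0.09, beside -0.02 for all genes, with 10 higher and 25 lower (28.6% higher, beside 46.5%). There 0 genes were 1.5-fold higher and 1 was lower (Gabarapl2), with 4.73% and 5.66% of all genes called, and 1.25% and 1.27% at 2-fold. DKO minus Foxo3aKO gave a list median of -0.09, where that of all genes was 0.03, with 12 higher and 23 lower (34.3% higher, beside 53.9%). In that comparison 1 gene was 1.5-fold higher (Atg4b) and 1 lower (Wipi1), with 5.35% and 6.09% of all genes called, and 0.994% and 1.92% at 2-fold. On the values as deposited, the shares of autophagy genes past 1.5-fold were thus below those of all genes in each direction of the 5 comparisons. The counts were 0 to 2 of 35 genes, too small to read as a deficit. With median centring, 3 of 35 were lower in Foxo3aKO than in WT (8.57%), beside 8.11% of all genes, as Gabarapl2 also passed. The 3 comparisons with WT share the WT array, and the last 3 share the DKO array, so their counts are not independent.

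**Figure D2:**
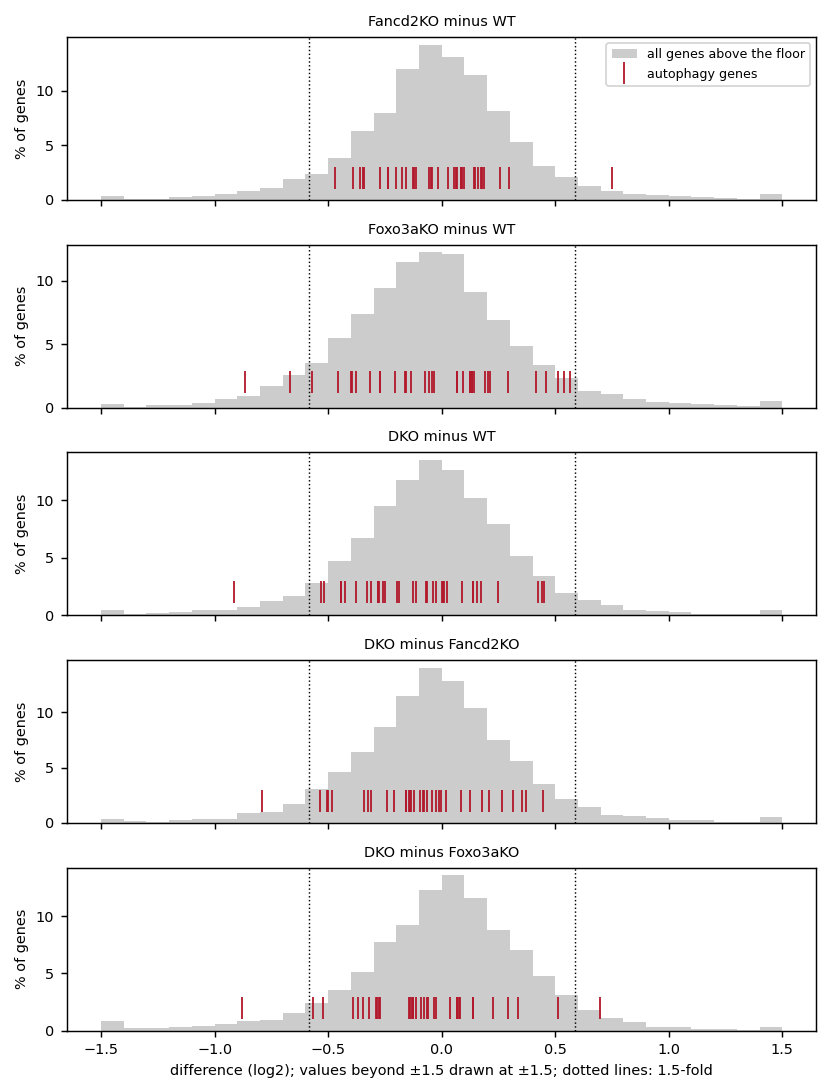
Distribution of log2 differences for the 11068 genes above the floor (grey bars, percent of genes) and the 35 autophagy genes above it (red ticks, whose height carries no value) in each of the 5 comparisons. Dotted lines mark 1.5-fold, which 7 of the 175 autophagy ticks pass.

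The kinase complex that starts autophagy was represented by all 5 of its genes. Ulk1, the kinase itself, stood at 7.84 log2 in Fancd2KO, 7.52 in Foxo3aKO and 7.75 in DKO, against 8.19 in WT. All knockout arrays lay below WT, and the Foxo3aKO array was lowest, by -0.67 (probe set 17451140, 1.59-fold lower). Its relative Ulk2 stood at 7.48 in Fancd2KO, 7.28 in Foxo3aKO and 7.36 in DKO, against 7.34 in WT. Ulk2 therefore spanned 0.20, and its differences from WT had no common sign. The scaffold partner Atg13 stood at 7.41 in Fancd2KO, 7.03 in Foxo3aKO and 7.16 in DKO, against 7.42 in WT. The Atg13 values of both arrays labelled as lacking Foxo3a were lower than those of the other arrays. Rb1cc1, which encodes the scaffold FIP200, differed from WT by -0.06 in Fancd2KO, 0.13 in Foxo3aKO and -0.19 in DKO. Atg101, which stabilises Atg13, differed by 0.16, 0.07 and 0.14 on the same arrays.

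Genes of the lipid kinase complex were closely matched between arrays, apart from Atg14 and Ambra1. Becn1, the core subunit, ranged over only 0.17 log2, with 7.10 in Fancd2KO, 7.15 in Foxo3aKO and 7.19 in DKO, against 7.02 in WT. The catalytic subunit gene Pik3c3 ranged over 0.12 and its regulatory partner Pik3r4 over 0.28. Uvrag, which directs the complex to endosomes, ranged over 0.14. Atg14, which directs it to autophagosome formation, stood at 7.21 in Fancd2KO, 7.15 in Foxo3aKO and 7.23 in DKO, against 7.61 in WT. The knockout arrays lay within 0.08 of each other and -0.38 to -0.46 from WT, which places the WT array apart for this gene. Ambra1, a regulator that binds Becn1, stood at 7.32 in Fancd2KO, 7.47 in Foxo3aKO and 7.76 in DKO, against 7.79 in WT. Here the arrays of 1 lost gene were lower and DKO was level with WT, so that DKO stood 0.76 above its additive expectation, the WT value plus both single differences.

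Among genes that supply membrane or read the lipid mark, Wipi1 varied most. Wipi1, a protein that binds the lipid made by the kinase complex, stood at 6.92 in Fancd2KO, 7.45 in Foxo3aKO and 6.58 in DKO, against 6.89 in WT. The Foxo3aKO array was highest and DKO lowest, a difference of -0.88 for DKO minus Foxo3aKO (probe set 17271259, 1.84-fold lower). Wipi2, which recruits the conjugation machinery, stood at 7.73 in Fancd2KO, 7.28 in Foxo3aKO and 7.22 in DKO, against 7.56 in WT. Unlike Wipi1, Wipi2 was lower on both arrays labelled as lacking Foxo3a than on the other arrays. Atg9a, the membrane protein of the vesicles that seed the autophagosome, stood at 7.31 in Fancd2KO, 7.30 in Foxo3aKO and 7.16 in DKO, against 7.67 in WT. It was below WT on each knockout array, by -0.36 in Fancd2KO, -0.38 in Foxo3aKO and -0.52 in DKO.

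By their medians, markers of eosinophils, mast cells and multipotent progenitors also set the WT array apart, as Ulk1, Atg14 and Atg9a do. Those of neutrophils and monocytes did not. The 8 eosinophil and mast cell markers had median differences from WT of -1.30 in Fancd2KO, -0.91 in Foxo3aKO and -1.80 in DKO, with 8, 6 and 8 of them lower. Their summed signal was 11.37 log2 in Fancd2KO, 12.25 in Foxo3aKO and 11.11 in DKO, against 12.99 in WT. Of these markers, 2 lay under the floor in each knockout, against 1 in WT, and Mcpt4 was the lowest on every array. The 5 markers of multipotent progenitors had medians of -0.88 in Fancd2KO, -1.12 in Foxo3aKO and -1.30 in DKO relative to WT, with 5, 5 and 4 of them lower. Cd48 went the other way in DKO, at 0.52 above WT, and was -0.04 from WT in Foxo3aKO. Their summed signal was 10.83 in Fancd2KO, 10.49 in Foxo3aKO and 10.91 in DKO, against 11.59 in WT, with Cd34 the highest of the 5 on every array. The part of such cells in the Ulk1, Atg14 and Atg9a values was not tested.

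The 7 conjugation genes had a median difference from WT of 0.07 in Fancd2KO, 0.21 in Foxo3aKO and -0.07 in DKO, and none was 1.5-fold apart in any comparison. Atg3, the enzyme that hands Atg8 proteins to the membrane lipid, stood at 9.18 in Fancd2KO, 9.75 in Foxo3aKO and 9.18 in DKO, against 9.45 in WT. Atg7, the activating enzyme of both conjugation routes, stood at 7.65 in Fancd2KO, 8.30 in Foxo3aKO and 7.78 in DKO, against 7.89 in WT. For both genes the Foxo3aKO array was highest and both arrays labelled as lacking Fancd2 lay below WT. Atg12, the ubiquitin-like partner of Atg5, stood at 7.84 in Fancd2KO, 8.12 in Foxo3aKO and 7.76 in DKO, against 7.67 in WT. All 7 conjugation genes were lower in DKO than in Foxo3aKO, by -0.13 to -0.57, beside 5099 of the 11068 genes above the floor. Atg5 differed from WT by -0.24 in Fancd2KO, -0.16 in Foxo3aKO and -0.28 in DKO. Atg10, which joins Atg12 to Atg5, spanned 0.13 over the 4 arrays. Atg16l1, the scaffold that places the Atg5 and Atg12 conjugate on the membrane, differed from WT by 0.26, 0.20 and -0.07 on the knockout arrays. Its relative Atg16l2 differed by 0.15, 0.21 and -0.06, the same order of signs.

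By their median, neutrophil markers, like Atg3 and Atg7, were highest in Foxo3aKO and lower than WT in Fancd2KO and DKO. Elane and Mpo, 2 of the 12, were instead higher than WT on every knockout array and highest in DKO. The median difference of monocyte markers from WT was largest in DKO, while their summed signal was highest in Foxo3aKO. The median difference of the 12 neutrophil markers from WT was -0.39 in Fancd2KO, 0.37 in Foxo3aKO and -0.49 in DKO, and DKO minus Foxo3aKO had a median of -0.86, with 10 of 12 lower. The summed neutrophil signal was 14.94 log2 in Fancd2KO, 15.51 in Foxo3aKO and 14.93 in DKO, against 15.20 in WT, and 0 of the 12 markers lay under the floor on any array. Of 15 measured monocyte and macrophage markers, 15 were higher than WT in Foxo3aKO, while 10 were higher and 5 lower in DKO. Their median differences from WT were -0.36 in Fancd2KO, 0.56 in Foxo3aKO and 1.03 in DKO. DKO minus Foxo3aKO had a median of -0.11, with 7 higher and 8 lower. Their summed signal was 12.53 in Fancd2KO, 13.40 in Foxo3aKO and 13.25 in DKO, against 12.88 in WT. Markers under the floor numbered 2 in Fancd2KO, 1 in Foxo3aKO and 0 in DKO, against 2 in WT. The part of these cells in the values of autophagy genes was not tested. In bulk RNA, a change in how many cells of a type were sorted and a change in RNA per cell cannot be told apart.

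**Figure D3:**
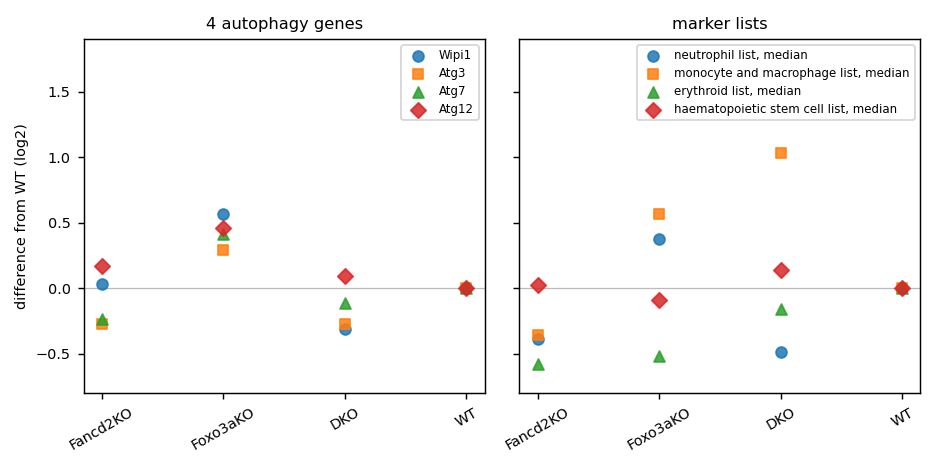
Difference from WT in log2 (vertical axis) on each array for Wipi1, Atg3, Atg7 and Atg12 (left) and for the median of 4 marker lists (right), with WT at 0 by construction. The 4 genes were picked after their values were seen, and each is highest on the Foxo3aKO array, where the neutrophil median is 0.37 and the monocyte median 0.56.

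The Atg4 proteases trim Atg8 proteins before conjugation and release them from membranes afterwards. Atg4b stood at 6.95 log2 in Fancd2KO, 6.63 in Foxo3aKO and 7.32 in DKO, against 6.90 in WT. It was highest in DKO and lowest in Foxo3aKO, 0.70 apart (probe set 17216070, 1.62-fold higher in DKO). Atg4d stood at 5.87 in Fancd2KO, 5.71 in Foxo3aKO and 6.23 in DKO, against 5.79 in WT. It had the same order of arrays as Atg4b, at values below the background of probes rich in G and C. Atg4c stood at 6.81 in Fancd2KO, 7.14 in Foxo3aKO and 7.08 in DKO, against 6.63 in WT. Both arrays labelled as lacking Foxo3a were higher than the others for Atg4c. Atg4a stood at 7.14 in Fancd2KO, 7.18 in Foxo3aKO and 7.32 in DKO, against 7.31 in WT. The 4 protease genes had a median of 0.43 for DKO minus WT, with 4 higher, 0 lower and 0 past 1.5-fold. Of all genes above the floor, 45.3% were higher in that comparison.

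The Atg8 family, the proteins that coat the growing membrane, held 4 of the 7 differences past 1.5-fold, in Gabarapl1, Gabarapl2 and Map1lc3a. Gabarapl2 gave 2 of these, in comparisons that share the DKO array. Each was 1 of 5 family genes in its comparison and direction, where 4.75% to 7.45% of all genes were called. A count of 1 in 5 is too small to read as a trait of the family. Gabarapl1 stood at 9.01 log2 in Fancd2KO, 8.20 in Foxo3aKO and 8.53 in DKO, against 9.06 in WT. Both arrays labelled as lacking Foxo3a were lower than both others. The difference from WT was -0.87 in Foxo3aKO (probe set 17463550, 1.82-fold lower) and -0.53 in DKO, while Fancd2KO differed by -0.05. Gabarapl2 stood at 7.49 in Fancd2KO, 7.04 in Foxo3aKO and 6.69 in DKO, against 7.61 in WT. Again both arrays labelled as lacking Foxo3a were the lower ones, and here DKO was lowest. Gabarapl2 was lower in DKO by -0.91 against WT (probe set 17505774, 1.88-fold) and by -0.79 against Fancd2KO (1.73-fold), and Foxo3aKO differed from WT by -0.57, just under 1.5-fold. The DKO value was -0.22 from the additive expectation of 6.92. Among markers of other cells, the summed signal of the 5 measured megakaryocyte genes was 9.91 log2 in Fancd2KO, 9.07 in Foxo3aKO and 9.28 in DKO, against 10.04 in WT. Their median differences from WT were 0.33 in Fancd2KO, -0.50 in Foxo3aKO and -0.15 in DKO. The 5 differed among themselves: Ppbp was -3.11 from WT in Fancd2KO, where Selp was 1.55 higher, and 2 of 5 were higher than WT in DKO. Of these 5 markers, 1 lay under the floor in Foxo3aKO and 1 in DKO, against 0 in WT. Their part in the Gabarapl1 and Gabarapl2 values was not tested.

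Map1lc3b, the LC3 gene whose protein is the usual marker of autophagosomes, stood at 9.86 in Fancd2KO, 9.61 in Foxo3aKO and 9.33 in DKO, against 9.77 in WT. Its DKO value was lowest, -0.45 from WT and -0.53 from Fancd2KO. Map1lc3a, a second LC3 gene, stood at 6.45 in Fancd2KO, 6.24 in Foxo3aKO and 5.95 in DKO, against 5.70 in WT. It was higher by 0.75 in Fancd2KO (probe set 17378337, 1.68-fold), and DKO lay -1.04 from the additive expectation of 6.98. Its WT signal was close to the floor, and its DKO and WT values were below the background of probes rich in G and C (6.49 in DKO and 6.41 in WT). Gabarap, measured by a pair of probe sets, stood at 10.89 in Fancd2KO, 11.21 in Foxo3aKO and 11.10 in DKO, against 11.09 in WT on the brighter probe set. On the other it stood at 10.61, 10.81 and 10.77 in the knockouts, against 10.82 in WT. Both probe sets put Fancd2KO lowest, by -0.20 from WT on each, and they differed in sign for Foxo3aKO minus WT (0.12 and -0.01). Genes of this family are similar in sequence, and how far their probe sets share signal was not known.

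**Figure D4:**
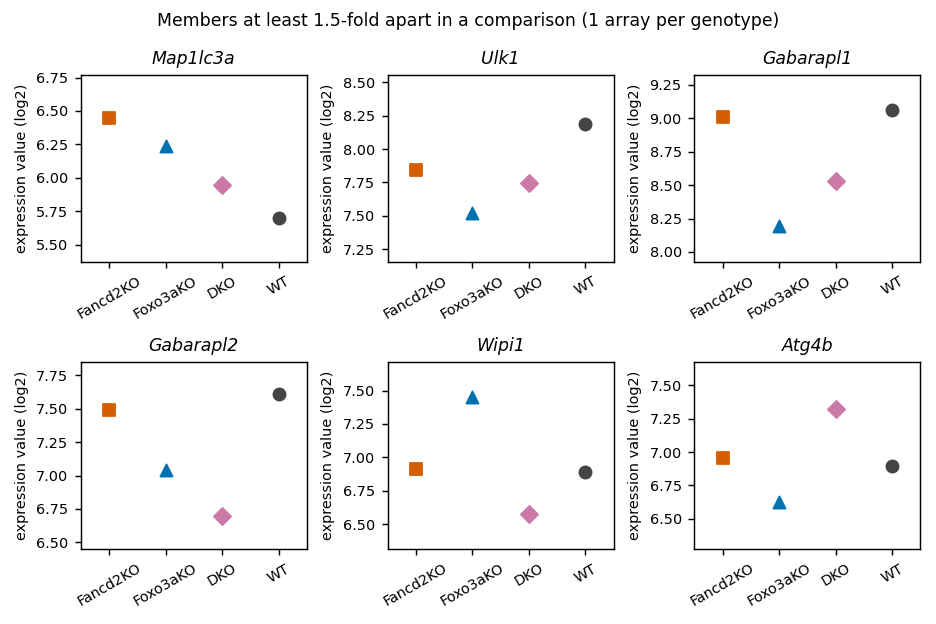
Expression value in log2 (vertical axis, each panel 1.4 log2 high) on the 4 arrays for the 6 autophagy genes at least 1.5-fold apart in a comparison. Gabarapl1 and Gabarapl2 are lower on the Foxo3aKO and DKO arrays than on the Fancd2KO and WT arrays.

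Promoter sequences are shown for Gabarapl1 and Gabarapl2, which had the largest differences from WT among these genes, and for Atg3 and Lamp1, which carry repeated E-box letters. Each sequence is the 250 bases before the RefSeq gene start on assembly GRCm38.p6, read 5′ to 3′ on the plus strand, at chr6:129532942-129533191 for Gabarapl1, chr8:111940453-111940702 for Gabarapl2, chr16:45158579-45158828 for Atg3 and chr8:13158911-13159160 for Lamp1. Capitals mark CACGTG, the E-box core that Tfeb and other factors bind.
Gabarapl1: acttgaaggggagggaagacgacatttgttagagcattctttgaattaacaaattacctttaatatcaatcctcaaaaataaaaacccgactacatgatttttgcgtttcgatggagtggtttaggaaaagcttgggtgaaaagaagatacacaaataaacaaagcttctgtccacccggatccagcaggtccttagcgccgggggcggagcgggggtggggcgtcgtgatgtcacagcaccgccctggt
Gabarapl2: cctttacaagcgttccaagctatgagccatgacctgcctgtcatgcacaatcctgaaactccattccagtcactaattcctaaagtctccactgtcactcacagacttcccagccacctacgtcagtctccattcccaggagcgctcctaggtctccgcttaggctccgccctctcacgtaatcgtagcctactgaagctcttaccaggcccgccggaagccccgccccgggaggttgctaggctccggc
Atg3: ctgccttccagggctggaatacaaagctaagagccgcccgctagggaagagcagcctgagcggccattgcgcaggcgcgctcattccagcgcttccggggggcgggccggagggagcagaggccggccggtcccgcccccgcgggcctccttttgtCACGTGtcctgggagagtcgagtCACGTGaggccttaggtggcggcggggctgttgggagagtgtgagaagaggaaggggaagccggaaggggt
Lamp1: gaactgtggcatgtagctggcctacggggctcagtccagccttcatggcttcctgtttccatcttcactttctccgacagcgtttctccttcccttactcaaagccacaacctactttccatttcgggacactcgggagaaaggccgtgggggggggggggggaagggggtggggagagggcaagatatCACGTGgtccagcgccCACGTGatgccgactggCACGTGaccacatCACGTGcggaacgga

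The windows searched ran from 250 bases before to 50 after each start, on both strands. RefSeq held 35 such promoters for 30 of the 36 measured autophagy genes. The forkhead letters TGTTTAC were in 0 of these 35 and in 3.65% of all 32851 promoters. Only these exact letters were searched, so near variants of the motif were not counted. With so low a share over all promoters, 0 of 35 cannot be read as a lack of forkhead sites. The E-box letters CACGTG were in 5 of the 35 (14.3%), those of Atg3, Atg5, Atg7, Atg14 and Lamp1, and in 7.15% of all promoters. These motifs do not overlap each other. Matches in Lamp1 began 61, 45, 28 and 15 bases before the start, and those in Atg3 began 94 and 71 bases before it. A match shows letters only, and binding was not measured.

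No measured cargo receptor or lysosome gene was 1.5-fold apart in any comparison. Their spans over the arrays reached 0.42 log2, for Pink1, beside a median of 0.44 for all genes above the floor. Sqstm1, which encodes the receptor p62, stood at 8.30 log2 in Fancd2KO, 8.08 in Foxo3aKO and 8.14 in DKO, against 8.01 in WT. Nbr1, a related receptor, spanned 0.19 over the 4 arrays. Pink1, the kinase that marks damaged mitochondria, stood at 5.93 in Fancd2KO, 5.87 in Foxo3aKO and 5.85 in DKO, against 6.27 in WT. The knockout arrays were alike for Pink1 and lower than WT, by -0.34 to -0.42, at values below the background of probes rich in G and C on every array.

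Lamp1, a main protein of the lysosomal membrane, stood at 9.93 in Fancd2KO, 10.28 in Foxo3aKO and 10.25 in DKO, against 10.09 in WT. Its relative Lamp2 stood at 9.67 in Fancd2KO, 9.75 in Foxo3aKO and 9.36 in DKO, against 9.61 in WT. The DKO array was lowest for Lamp2 and close to the highest for Lamp1. Tfeb stood at 5.11 in Fancd2KO, 4.90 in Foxo3aKO and 5.01 in DKO, against 5.28 in WT, all under the floor, so that its order has little weight.

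**Figure D5:**
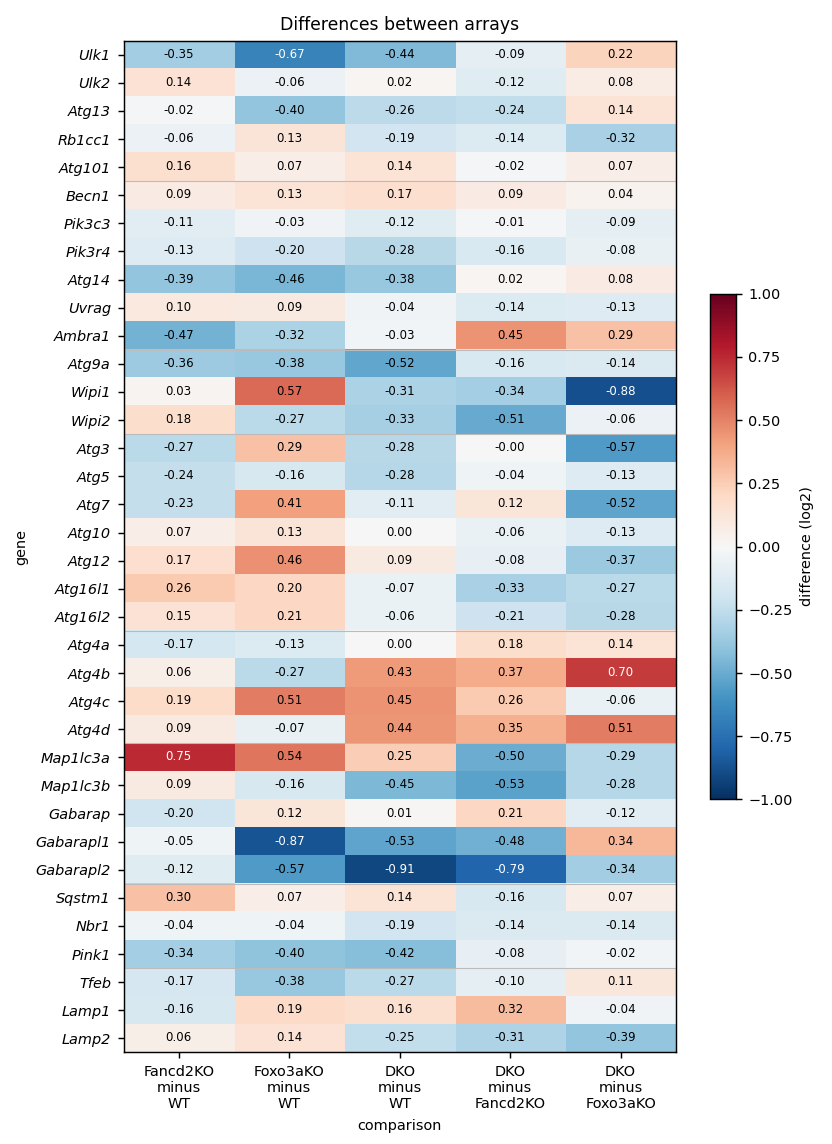
Log2 differences of the 36 measured autophagy genes (rows, grouped by role) in the 5 comparisons (columns), with the value printed in each cell and red for higher in the first-named array. The deepest blue cells are Gabarapl2 in DKO minus WT (-0.91), Wipi1 in DKO minus Foxo3aKO (-0.88) and Gabarapl1 in Foxo3aKO minus WT (-0.87).

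Because the 4 genotypes form a layout of 2 losses, an additive limma fit over all 11068 genes could compare the 2 arrays with a loss against the 2 without it. The fit had 1 residual degree of freedom and counted any departure from additivity as error. For Foxo3a loss, 0 of 35 autophagy genes passed an adjusted p of 0.05, and 0 of all genes did. At an unadjusted p under 0.05 there were 2 of the 35 (5.71%), Gabarapl1 and Gabarapl2, beside 4.66% of all genes. Gabarapl2 averaged 6.87 log2 with Foxo3a loss and 7.55 without it, a difference of -0.68 (SE 0.19, limma adjusted p = 0.951, lower in 2 of 2 arrays). Gabarapl1 averaged 8.36 with Foxo3a loss and 9.04 without it, a difference of -0.67 (SE 0.20, limma adjusted p = 0.951, lower in 2 of 2 arrays). For Fancd2 loss, limma called 0 of 35 at the adjusted threshold and 0 at the unadjusted one, beside 0 and 4.07% of all genes. Atg3 had the smallest p there, with means of 9.18 with Fancd2 loss and 9.60 without it, a difference of -0.42 (SE 0.19, limma adjusted p = 0.9996, lower in 2 of 2 arrays).

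Other genes of the pathway came from 5 lists with 96 genes, of which 90 were measured and 87 lay above the floor. In Fancd2KO against WT, 4 of the 87 were 1.5-fold higher and 5 lower (4.60% and 5.75%), near the 4.75% and 5.85% of all genes. In Foxo3aKO 4 were higher and 3 lower (4.60% and 3.45%), beside 5.29% and 7.45% of all genes. In DKO 1 was higher and 3 lower (1.15% and 3.45%), beside 4.26% and 5.93%. DKO minus Fancd2KO gave 3 higher and 3 lower (3.45% each), beside 4.73% and 5.66%. DKO minus Foxo3aKO gave 1 higher and 3 lower (1.15% and 3.45%), beside 5.35% and 6.09%. The further genes were thus called no more often than all genes, and the genes named below are single cases among them. None of the 14 further core genes above the floor was 1.5-fold apart in any comparison.

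Among the 12 receptor genes of selective autophagy above the floor, Bnip3 differed most from WT in DKO. Bnip3, a mitophagy receptor and a known Foxo3 target in mouse muscle, stood at 6.39 log2 in Fancd2KO, 6.10 in Foxo3aKO and 5.68 in DKO, against 6.63 in WT. It was lowest in DKO, by -0.94 from WT, at a DKO value below the background of probes rich in G and C (6.49). Bcl2l13, another mitochondrial receptor, differed from WT by -0.80 in Fancd2KO, -0.42 in Foxo3aKO and -0.46 in DKO, with Fancd2KO, DKO and WT below that background. Of the 12 genes for fusion with the lysosome, the SNARE gene Ykt6 was -0.83 from WT in Fancd2KO, at a value under the floor, and the tethering subunit Vps39 was -0.63 in Foxo3aKO. Vps33a, a subunit of the same tethering complex, was 0.73 higher in DKO than in Fancd2KO and 0.64 higher than in Foxo3aKO.

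Of 22 genes of lysosomal enzymes and the proton pump above the floor, Gla differed most. Gla, the alpha-galactosidase gene, stood at 7.94 in Fancd2KO, 8.55 in Foxo3aKO and 7.37 in DKO, against 7.23 in WT. It was 1.32 higher in Foxo3aKO than in WT, while DKO was close to WT. The heparan sulfate enzyme gene Naglu was lower than WT by -0.66 in Fancd2KO, -0.51 in Foxo3aKO and -0.76 in DKO, with Fancd2KO and DKO below the same background. Psap, whose product is cut into activators of lysosomal lipid enzymes, stood at 9.68 in Fancd2KO, 10.56 in Foxo3aKO and 10.54 in DKO, against 10.33 in WT. It was lowest in Fancd2KO, by -0.65 from WT, and DKO was 0.87 higher than Fancd2KO. The protease gene Ctsb was 0.70 higher in DKO than in WT, beside the monocyte markers, whose median was 1.03. The part of monocytes in the Ctsb value was not tested.

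Of 27 upstream control genes above the floor, 3 were 1.5-fold higher in Fancd2KO and the same 3 in Foxo3aKO, beside 4.75% and 5.29% of all genes, and 0 in DKO, beside 4.26%. Both counts share the WT array. Prkaa2, a catalytic subunit of the energy sensor AMPK, stood at 6.60 in Fancd2KO, 6.30 in Foxo3aKO and 5.80 in DKO, against 5.49 in WT. Its WT value was under the floor, and its DKO and WT values were below the background of probes rich in G and C. Fnip1, a partner of folliculin in nutrient sensing, stood at 8.47 in Fancd2KO, 8.47 in Foxo3aKO and 7.83 in DKO, against 7.66 in WT. Deptor, an inhibitor of mTOR, was higher than WT by 0.73 in Fancd2KO, 0.69 in Foxo3aKO and 0.28 in DKO. Map1lc3a had the same order of values, with Fancd2KO and Foxo3aKO above DKO and WT lowest. Sesn3, a stress-induced inhibitor of mTOR signalling, was lower than WT by -0.63 in Fancd2KO, -0.81 in Foxo3aKO and -0.96 in DKO.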

How the data were processed

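RNA from sorted marrow cells was measured on 4 arrays, 1 for each genotype. The deposited table held 41345 probe sets whose values were on a log2 scale, per the range of the deposited values. Affymetrix Expression Console was used, per the submitters' processing notes, while its version, summarisation method and normalisation are not given in the sources used here. Sorted values lay within 0.0889 log2 of their mean at every rank, so the normalisation was kept. The platform annotation gave 23521 probe sets 1 symbol, 1814 several and 16010 none, and 1 probe set that names Becn1 with another gene was left out.

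Arrays were subtracted on the log2 scale, and folds of 1.5 and 2 were counted beside those of all genes with a mean at or above 5.51 log2. The additive fit used limma 3.58.1 in R 4.3.3 with Benjamini-Hochberg adjustment. Its estimates were checked on simulated data that gave every gene the same variance, so the power to call genes in these data was not measured. With 1 array per genotype, precision is limited by the number of arrays. Alternatives were quantile normalisation, median centring, the mean of all probe sets, other floors, raising dim values and a mean-variance trend. The genes and lists were chosen with earlier results of these data known. All 36 measured genes are named, and up to 4 genes of each further list by size of difference.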

Additional observations from a re-analysis of the deposited data

Results flagged for a closer look

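The loss of Foxo3a went with opposite differences on the 2 Fancd2 backgrounds for 2 autophagy genes, at least 0.32 log2 in each direction, a limit set after the data were seen. Wipi1 was 0.57 log2 higher in Foxo3aKO than in WT, and DKO minus Fancd2KO was -0.34. Map1lc3a was 0.54 higher in Foxo3aKO than in WT, and DKO minus Fancd2KO was -0.50. The DKO and WT values of Map1lc3a, 5.95 and 5.70, were below the background of probes rich in G and C, 6.49 in DKO and 6.41 in WT. With 1 array per genotype, these differences between backgrounds were not tested. The limit of 0.32 log2 is smaller than the SD of probe set disagreement, 0.44 to 0.48. The share of all genes above the floor that met this rule was not counted, so the 2 genes cannot be read as an excess.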

How the results depend on the processing

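The 7 differences of single genes past 1.5-fold kept their direction and stayed past it with quantile normalisation and median centring. The rest of the 6 alternatives could not change these values, as each gene had 1 probe set and no value under the floor. The list median of DKO minus WT, -0.11 log2 as reported, was -0.050 with quantile normalisation and -0.18 with median centring, where the median of all genes was 0.0044 and -0.10. Median centring also gave 2 genes at least 1.5-fold lower in DKO than in WT (5.71%, beside 7.69% of all genes), adding Gabarapl1 to Gabarapl2. It gave 2 lower in DKO than in Foxo3aKO (5.71%, beside 7.16%), adding Atg3 to Wipi1. In Foxo3aKO minus WT it gave 3 lower (8.57%, beside 8.11%), against 2 as reported, adding Gabarapl2 to Ulk1 and Gabarapl1. The additive limma fit called 0 autophagy genes under the same 6 alternatives and with a mean-variance trend. It also called 0 of all genes in each of them, so these repeats show nothing particular to autophagy genes. No paired analysis was possible because each genotype had 1 array, and leaving out an array would leave no residual degree of freedom. Differences under about 0.9 log2 are within the disagreement of probe sets, which holds no variation between animals or sorts. A larger difference is therefore not made safe by that measure. Signals near 6 log2 are close to the background of probes rich in G and C, but well above the median of all background probe sets.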
